A study of Mus musculus with 54 samples.

Results

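The comparison described here is that of male mice given 150 mg/kg bw/d of di-isononyl phthalate (DINP), a plasticizer used in polyvinyl chloride, with control mice that received no DINP. It takes in the 14 control and the 14 high-dose liver libraries among the 54 of the study, and the 11371 of 20162 entries (56.4%) whose mean value over these 28 libraries was at least 1. All mice were wild-type C57BL/6J males fed a high-fat diet from the age of 8 weeks. DINP was given in gelatin pellets for 20 weeks, and the controls received pellets without it. The other 2 groups, of 13 mice each, received 1.5 and 15 mg/kg bw/d and are used here only beside the high dose. The high-fat diet was thus shared by the control and the dosed mice, and no chow-fed mouse was part of the comparison. Obesity was not equal, as the paper reports less weight gain and a lower macrosteatosis score in the highest dose group than in controls. Dose is therefore not separated from body weight or liver fat in any difference below, and their share in these differences was not tested.

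Liver RNA was read from the 3′ ends of polyadenylated transcripts, and the values, which the authors named TPM, are called scaled TPM below because their whole-number steps look like rounded TPM multiplied by 1 factor per mouse, an inference from the values. Per-mouse totals ran from 747258 to 1012952 among controls and from 944620 to 1037174 at 150 mg/kg bw/d. Control replicate 8 stood apart with the lowest sum and with 14221 genes above 0, against 12338 to 13632 in the other 13 controls, and control replicate 9 came next with a sum of 857726 and 13632 genes. Results were therefore also computed without these 2 libraries, a choice made after the data were seen. Read depth is not kept in the values, so that no counting error can be given for a single mouse.

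PPARα is a nuclear receptor of hepatocytes that is activated by fatty acids, by fibrate drugs and by the monoester metabolites of many phthalates. In the rodent liver it switches on fatty acid oxidation in peroxisomes and mitochondria, the omega-hydroxylation of fatty acids by Cyp4a enzymes, acyl-CoA hydrolysis and carnitine uptake, and its prolonged activation is known to enlarge the peroxisome population. The genes below are ordered by these roles, followed by lipid handling, retinoid and phospholipid metabolism, the genes that fell, and the genes of other cell types.

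At 150 mg/kg bw/d, 170 genes rose (1.5% of those tested) and 78 fell (0.686%), which here means an adjusted p under 0.05 in limma (Benjamini-Hochberg, over the 11371 genes). Of these, 74 rose (0.651%) and 22 fell (0.193%) by a log2 fold change (log2FC) beyond 0.5 and are called DEGs. The log2FC refers to value + 1, which pulls it toward 0 for genes at low values. Over all tested genes the median log2FC was -0.0070, and 48.5% were above 0. An unadjusted p under 0.05 (limma) was found for 1605 of the 11371 genes, the background for the unadjusted counts below. The median log2FC was 0.70 among the 74 upregulated DEGs and -0.74 among the 22 downregulated DEGs. A change of 1 or more on the log2 scale was reached by 21 of the former and 5 of the latter. In 43 of the upregulated DEGs all 14 dosed mice lay above the control median, and in 10 of the downregulated DEGs all 14 lay below it. The DEGs were chosen from these same values, so that these counts describe them and are no separate support. Without control replicates 8 and 9 there were 63 upregulated and 21 downregulated DEGs, and 54 and 13 of the DEGs remained DEGs.

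**Figure D1:**
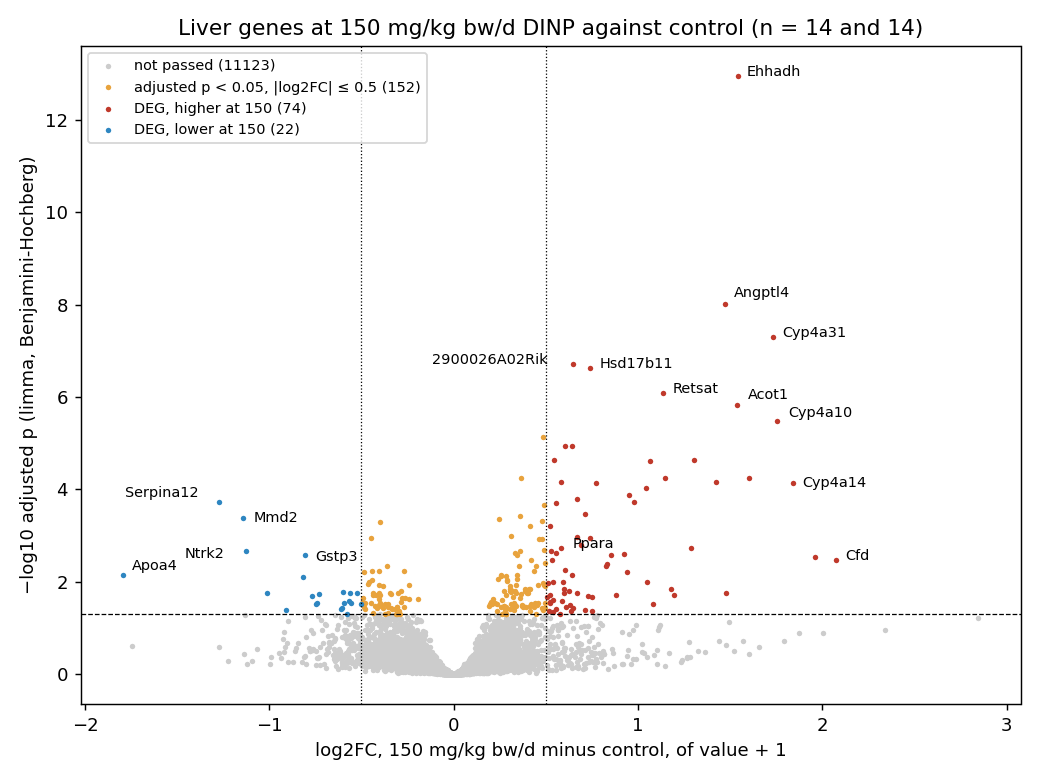
Each point is 1 of the 11371 tested genes, with the log2FC of 150 mg/kg bw/d minus control on the x axis and the −log10 of the adjusted p on the y axis (n = 14 mice each). The 74 upregulated DEGs are red, the 22 downregulated DEGs blue and the genes that passed the adjusted p with a smaller change orange. Ehhadh stands far above the other genes, Cfd lies farthest to the right among the DEGs and Apoa4 farthest to the left.

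In 11 genes (0.0967% of those tested) the lowest dosed mouse lay above the highest control, and no gene showed the opposite separation. They included Cyp4a14, Cyp4a10, Ehhadh, Slc27a2, Slc22a5, Hsd17b11, Hsdl2, 2900026A02Rik, 6430710M23Rik and Zfp667, a set singled out after the values were seen. The first 7 named encode enzymes or transporters of fatty acid or steroid handling. Zfp667 encodes a zinc finger protein and sat near the floor, at 0 to 1.01 scaled TPM in controls and 1.02 to 4.11 in dosed mice. In Zfp667, 6430710M23Rik and Slc22a5 the highest control and the lowest dosed mouse shared the same whole number before scaling. Only the per-mouse factor separated them there, and it ran from 0.764 to 1.04 in controls and from 0.970 to 1.07 in dosed mice. 2900026A02Rik (chromosome 5) had 8.31 to 15.4 scaled TPM in controls, with a median of 12.6, and 15.8 to 24.8 in dosed mice, with a median of 20.5 (log2FC 0.65 ± 0.080 SE, adjusted p = 1.92e-07, limma).

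The Cyp4a enzymes hydroxylate fatty acids at the omega end, the first step toward dicarboxylic acids. Of 11 tested members of the Cyp4 list, 5 rose, 0 fell and 6 did not pass, with a median log2FC of 0.36 against -0.0070 for all genes. Cyp4a14 was at 105.5, 345.0 and 583.2 scaled TPM (lowest, median and highest) in controls and at 863.9, 1111 and 1810 in dosed mice, so that the groups were separated by a wide gap. Its log2FC was 1.84 ± 0.30 (SE, adjusted p = 7.25e-05, limma). Cyp4a10 was at 37.5, 126 and 179 scaled TPM in controls and at 204, 381 and 705 in dosed mice, again without overlap.

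Cyp4a31 ranged from 0.978 to 7.07 scaled TPM in controls and from 5.91 to 20.9 in dosed mice, 13 of which exceeded every control (log2FC 1.73 ± 0.20 SE, adjusted p = 4.94e-08, limma). The 2 genes of the Cyp4a12 pair, which are male-biased in mouse liver, overlapped more between the groups. Cyp4a12a had a median of 29.7 scaled TPM and a highest control of 128, against a median of 139 and a lowest dosed mouse of 50.0, and 8 dosed mice exceeded all controls. For Cyp4a12b only 2 of 14 dosed mice did so, since 1 control reached 33.6 scaled TPM while the control median was 2.99. The 5 genes lie within one cluster on chromosome 4 (GRCm38, 115299046 to 115579015) and are close paralogs, so that shared 3′ reads may have been divided among them and single members are less certain than the cluster.

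In peroxisomal fatty acid oxidation, 8 of 22 tested genes rose and 0 fell, and 20 of the 22 log2FC were above 0 (median 0.32). The same 8 to 0 count was obtained without control replicates 8 and 9, with a median of 0.22. Ehhadh, the bifunctional enzyme of the pathway, was at 10.6, 14.2 and 30.0 scaled TPM (lowest, median and highest) in controls and at 33.0, 48.9 and 73.1 in dosed mice. With a log2FC of 1.54 ± 0.12 (SE), it had the lowest adjusted p of all tested genes (1.12e-13, limma).

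Acaa1b, a thiolase that closes the peroxisomal cycle, rose by less (log2FC 0.45, adjusted p = 0.0316), from 577.7 to 1192 scaled TPM in controls to 1008 to 1493 in dosed mice, with 12 dosed mice above every control. Its adjusted p reached 0.0671 without control replicate 5. Slc27a2, a very-long-chain acyl-CoA synthetase, ranged from 61.2 to 97.9 scaled TPM in controls and from 104 to 144 in dosed mice. Abcd3, which imports acyl-CoAs into peroxisomes, Ech1, Decr2 and Eci2, which handle unsaturated acyl chains, rose with log2FC between 0.42 and 0.58. Acox2 and Acox3, oxidases of branched-chain and bile acid side chains, had log2FC of 0.17 and -0.05 (adjusted p = 0.326 and 0.886).

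Among 19 tested genes of peroxisome assembly and membrane, 17 did not pass and 2 rose, where 1.5% of all tested genes rose. The median log2FC of the list was 0.02. The 2 were Pex11a, which drives peroxisome division (222 to 466 scaled TPM in controls and 460 to 910 in dosed mice, with 13 dosed mice above every control), and the membrane protein Pxmp4 (log2FC 0.34). Pex2 and Pex3, of the import and membrane assembly machinery, had log2FC of -0.23 and 0.15 (adjusted p = 0.439 and 0.217).

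**Figure D2:**
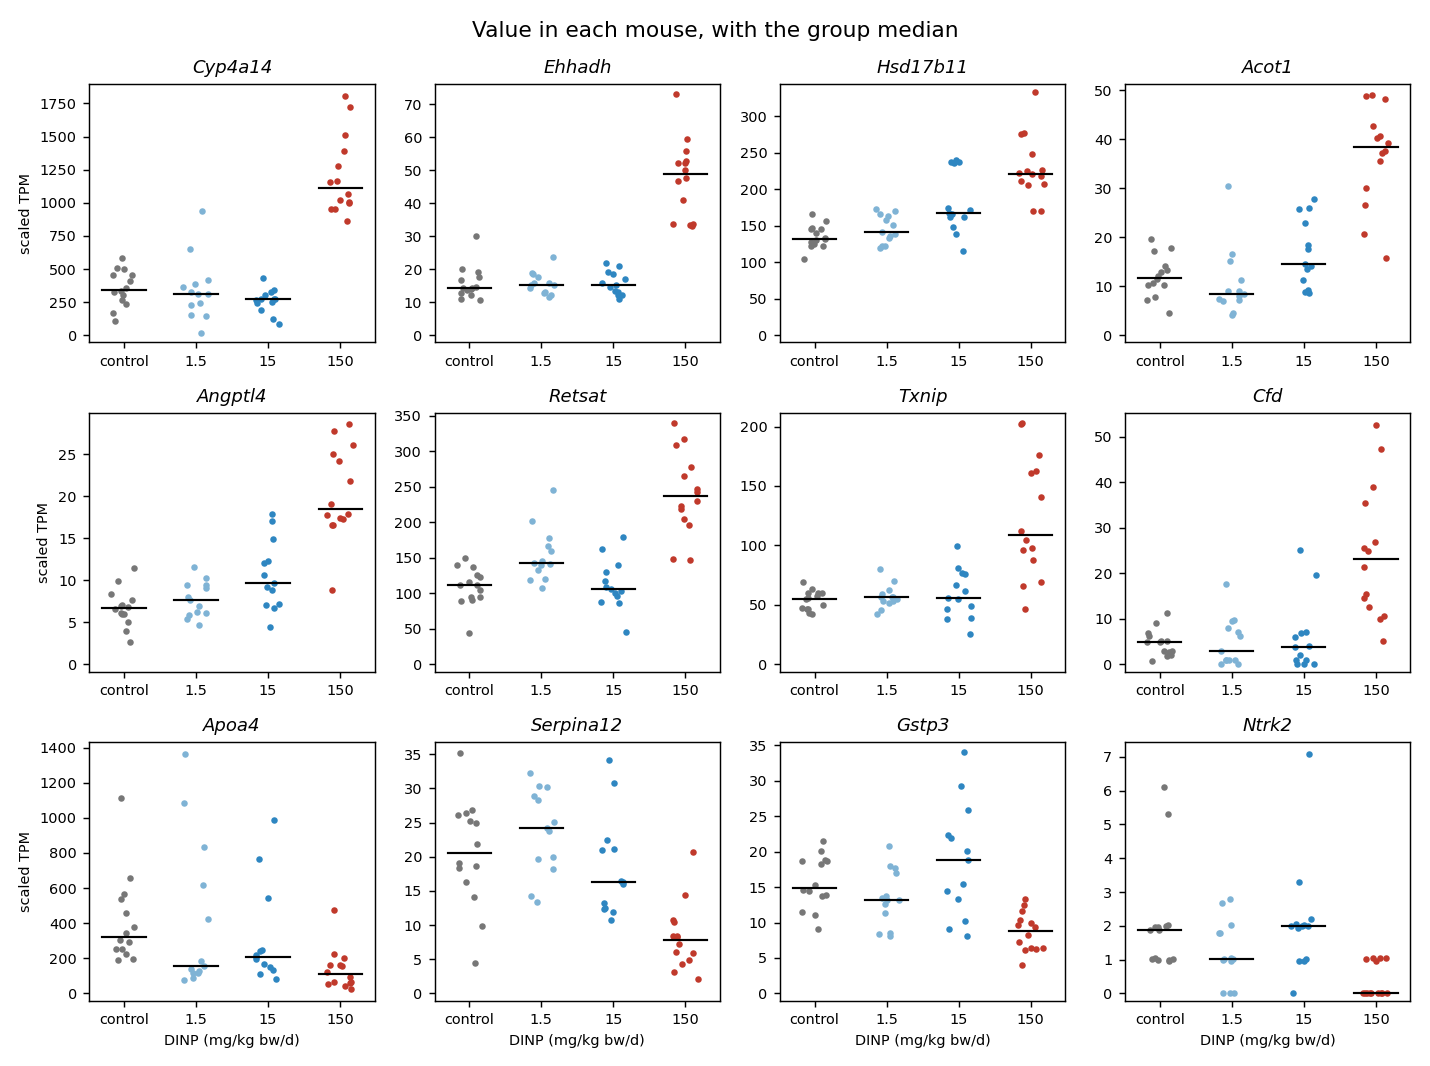
Each panel gives the scaled TPM of 1 gene on the y axis in every mouse of the 4 groups, with the dose in mg/kg bw/d on the x axis and the group median as a black bar (n = 14, 13, 13 and 14). Cyp4a14, Ehhadh and Hsd17b11 show no overlap between control and 150 mg/kg bw/d. Txnip and Cfd spread widely among the dosed mice, and Apoa4, Serpina12, Gstp3 and Ntrk2 are lower at the high dose.

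In mitochondrial fatty acid oxidation, 9 of 20 tested genes rose, 0 fell and 19 had a log2FC above 0 (median 0.27). Without control replicates 8 and 9, 7 rose. Acsl1, the acyl-CoA synthetase that commits fatty acids to metabolism, was at 94.0, 230 and 292 scaled TPM in controls and at 290, 348 and 427 in dosed mice (log2FC 0.72 ± 0.13 SE, adjusted p = 0.000335, limma). Of the 9, only Acsl1 passed the log2FC threshold. Cpt2, Acadl, Hadha, Echs1, Eci1, Decr1, Acaa2 and the acylcarnitine carrier Slc25a20 rose by 0.24 to 0.48. Hadha and Slc25a20 were close to the threshold and were lost in 17 and 20 of 28 refits with 1 mouse removed. Cpt1a, the rate-limiting carnitine palmitoyltransferase, had a log2FC of 0.10 ± 0.093 (SE, adjusted p = 0.682, limma).

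Carnitine supply was represented by 5 tested genes, of which Slc22a5 and Aldh9a1 rose. Slc22a5, the cell's carnitine importer, was at 1.96, 3.64 and 5.04 scaled TPM in controls and at 5.22, 6.02 and 8.54 in dosed mice. Bbox1, the last enzyme of carnitine synthesis, had a log2FC of -0.06 (adjusted p = 0.810).

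Acyl-CoA thioesterases cleave acyl-CoAs into free fatty acids and CoA. Of 10 tested members, 5 rose and 0 fell (median log2FC 0.28). Acot1, the cytosolic form, was at 4.59, 11.8 and 19.7 scaled TPM in controls and at 15.8, 38.5 and 49.1 in dosed mice, 13 of which exceeded every control. Acot2, the mitochondrial form, ranged from 6.08 to 23.9 and from 12.8 to 67.3 scaled TPM, with 8 dosed mice above every control. Without control replicates 8 and 9, Acot1 and Acot2 were the 2 members that rose, and the adjusted p of Acot3 and Acot4 became 0.0993 and 0.113. Acot1 to Acot4 are neighbouring paralogs on chromosome 12 that may share reads.

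Among the genes that the list of further PPARα targets held, 8 of 26 rose, 0 fell and 24 had a log2FC above 0 (median 0.32). Without control replicates 8 and 9, 6 rose and 1 fell. Ppara itself was at 82.1, 134 and 187 scaled TPM in controls and at 134, 196 and 264 in dosed mice, with 9 dosed mice above every control (log2FC 0.58 ± 0.12 SE, adjusted p = 0.00186, limma). It was 1 of 19 lipid and xenobiotic sensing receptors to rise, while Ppard and Pparg had log2FC of -0.08 and -0.19 (adjusted p = 0.816 and 0.766). Krt23, a keratin, went from a control range of 0.96 to 5.93 scaled TPM to 3.88 to 14.8 in dosed mice. Txnip, an inhibitor of thioredoxin that restrains glucose uptake, was at 42.7, 55.2 and 69.1 scaled TPM in controls and at 46.3, 109 and 203 in dosed mice.

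For Txnip, 12 dosed mice exceeded all controls and 1 lay below the control median, so that the dosed group was more spread out than the control group (SD 51.0 and 8.08 scaled TPM). Some well-known members of the list did not pass. Vnn1, a pantetheinase, had a log2FC of 0.79 ± 0.25 (SE, adjusted p = 0.0757, limma), and Fgf21, a secreted fasting hormone, of -0.46 ± 0.31 (adjusted p = 0.544). Plin2, the main lipid droplet coat protein of hepatocytes, had a log2FC of 0.30 (adjusted p = 0.375).

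**Figure D3:**
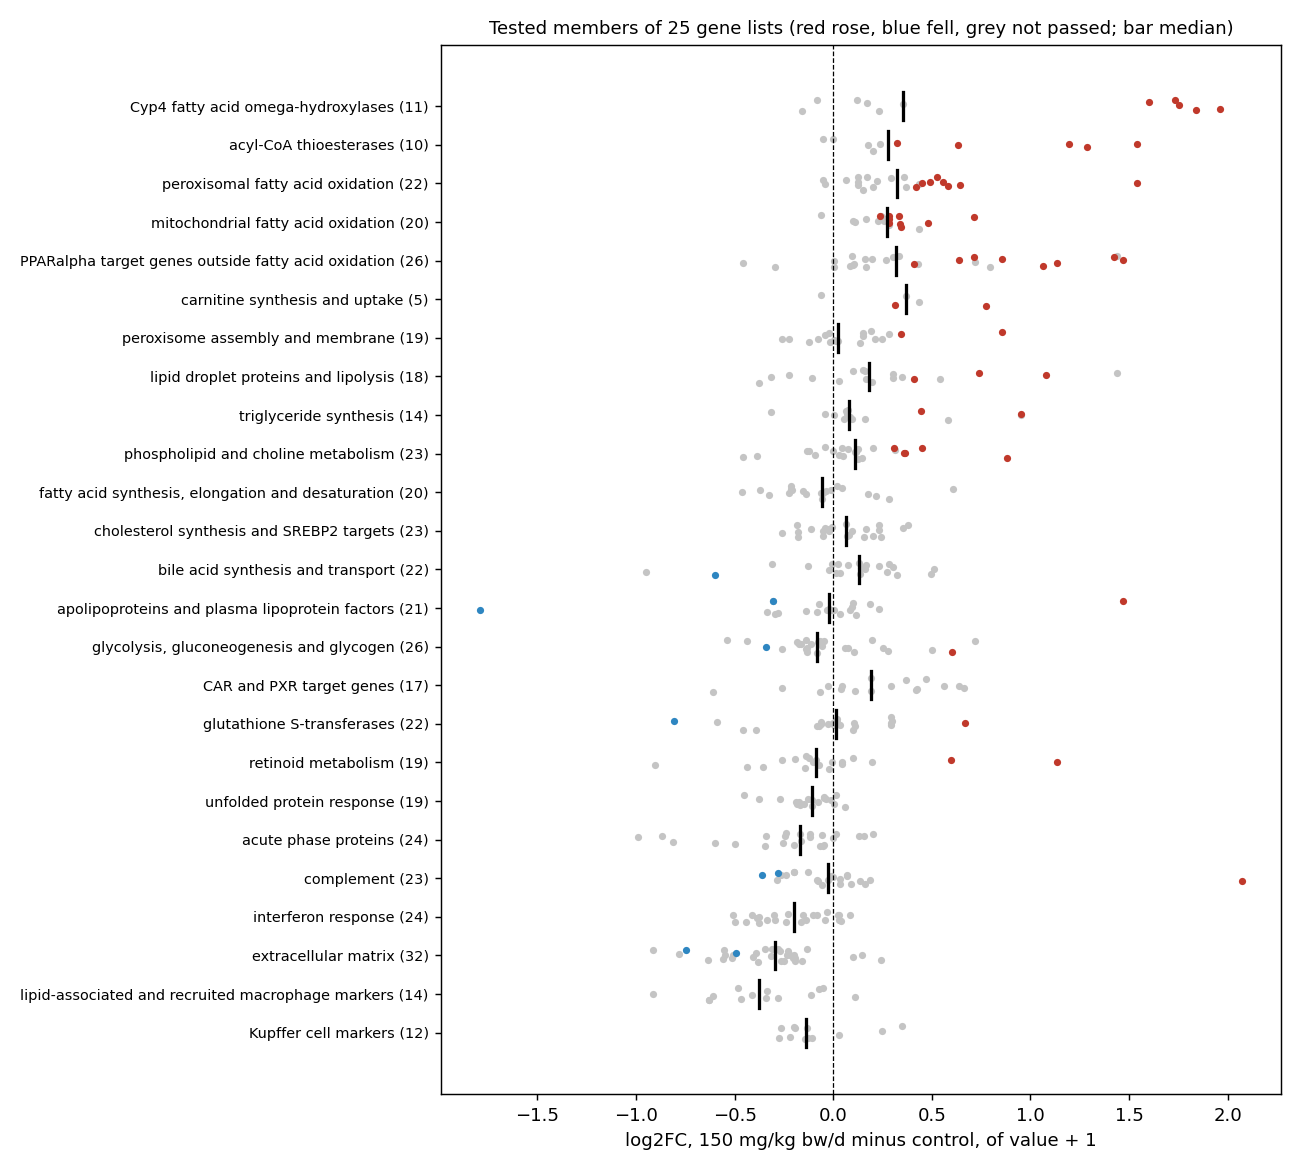
Each point is a tested gene of 1 of 25 lists, with the log2FC of 150 mg/kg bw/d minus control on the x axis, and the number of tested genes is in brackets. Red points rose, blue points fell, grey points did not pass and the black bar is the list's median. The red points gather in the fatty acid oxidation, thioesterase and PPARα target lists, where only red and grey points occur, and the medians of the extracellular matrix and macrophage lists lie left of 0.

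Lipid storage and lipoprotein genes moved in a smaller number and in both directions. Of 18 tested lipid droplet genes, 3 rose, of which Hsd17b11 was the only one to pass without control replicates 8 and 9. Hsd17b11, a dehydrogenase of the droplet surface, was at 105, 132 and 166 scaled TPM in controls and at 170, 221 and 333 in dosed mice, without overlap. G0s2, an inhibitor of triglyceride lipase, was at 63.5, 149 and 250 scaled TPM in controls and at 185, 291 and 478 in dosed mice (log2FC 1.08 ± 0.29 SE, adjusted p = 0.0297, limma). G0s2 did not pass without control replicate 8 (adjusted p = 0.0597), and without replicates 8 and 9 together the log2FC was 0.92 (adjusted p = 0.105). Fitm2, which aids droplet formation, rose by 0.41 and did not pass without control replicate 8 (adjusted p = 0.0662).

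In triglyceride synthesis, the phosphatidate phosphatase Lpin2 (41.5 scaled TPM in the median control and 91.6 in the median dosed mouse, log2FC 0.95) and the acyltransferase Agpat3 (log2FC 0.44) were the 2 of 14 genes that rose, and Agpat3 did not pass without control replicate 1 (adjusted p = 0.0585). None of the 20 tested genes of fatty acid synthesis, elongation and desaturation and none of the 23 of cholesterol synthesis passed the adjusted p (limma). At an unadjusted p under 0.05 the counts were 1 and 2, against 1605 of all 11371 tested genes. The medians of the log2FC were -0.06 and 0.06. Acly and Acaca, which supply and carboxylate acetyl-CoA for fatty acid synthesis, had log2FC of -0.37 and -0.06. Lrp1, a hepatic receptor for lipoprotein remnants, ranged from 17.8 to 34.5 scaled TPM in controls and from 26.2 to 59.0 in dosed mice, 7 of which exceeded every control.

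Angptl4, a secreted inhibitor of lipoprotein lipase, was at 2.65, 6.72 and 11.4 scaled TPM in controls and at 8.86, 18.5 and 28.6 in dosed mice, and 13 of the latter exceeded every control (log2FC 1.47 ± 0.16 SE, adjusted p = 9.77e-09, limma). Apoa4, an apolipoprotein of triglyceride-rich particles, moved the other way. It was at 192.6, 323.6 and 1114 scaled TPM in controls and at 27.2, 109 and 473 in dosed mice, and 11 of the 14 dosed mice lay below the lowest control (log2FC -1.79 ± 0.40 SE, adjusted p = 0.00717, limma). Apoc3, an apolipoprotein that slows the clearance of triglycerides and lies beside Apoa4 on chromosome 9, fell by 0.30 on the log2 scale, from 7134 ± 989 to 5756 ± 665 scaled TPM (SD, n = 14 each, adjusted p = 0.0178, limma). Apoa1 and Apoa2, the main proteins of high-density lipoprotein, had log2FC of -0.07 and 0.10 (adjusted p = 0.824 and 0.810).

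In the list of 21 apolipoproteins and plasma lipoprotein factors, 1 gene rose and 2 fell, and 1 rose and 5 fell without control replicates 8 and 9. In glucose metabolism 1 of 26 genes rose and 1 fell, against 1 and 3 without them. Pdp2, the phosphatase that activates pyruvate dehydrogenase, was at 9.17, 14.4 and 17.1 scaled TPM in controls and at 15.8, 21.3 and 28.8 in dosed mice (log2FC 0.60 ± 0.090 SE, adjusted p = 1.16e-05, limma). Of the 16 genes of the tricarboxylic acid cycle only Sdha, a subunit of succinate dehydrogenase, rose (log2FC 0.25, adjusted p = 0.000432), and of the 13 mitochondrially encoded mRNAs only COX1, a subunit of cytochrome c oxidase (log2FC 0.29).

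In retinoid metabolism 2 of 19 tested genes rose and 0 fell, with a median log2FC of -0.08. Retsat, which saturates retinol to dihydroretinol, was at 43.6, 112 and 150 scaled TPM in controls and at 146, 236 and 340 in dosed mice, 12 of which exceeded every control (log2FC 1.14 ± 0.15 SE, adjusted p = 8.26e-07, limma). Rdh16, a retinol dehydrogenase, ranged from 41.5 to 79.6 scaled TPM in controls and from 53.3 to 119 in dosed mice. Cyp26a1 and Cyp26b1, which degrade retinoic acid, had log2FC of -0.90 and -0.44 that did not pass (adjusted p = 0.208 and 0.624).

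Of 23 tested genes of phospholipid and choline metabolism, 5 rose and 0 fell, and 4 rose without control replicates 8 and 9, where Plpp3 did not pass (adjusted p = 0.0606). Gpcpd1, which splits glycerophosphocholine, was at 3.12, 16.4 and 30.3 scaled TPM in controls and at 19.8, 28.9 and 47.0 in dosed mice. Chkb (choline kinase), Chdh (choline dehydrogenase), Lpcat3 (a lysophospholipid acyltransferase) and Plpp3 (a lipid phosphate phosphatase) rose with log2FC between 0.31 and 0.45. Pemt, which methylates phosphatidylethanolamine to phosphatidylcholine, had a log2FC of -0.13 (adjusted p = 0.356).

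For genes of xenobiotic metabolism outside the Cyp4a family, the background was 1.5% of tested genes that rose and 0.686% that fell. At such shares a list of this size may hold no call. No gene passed among the 17 tested CAR and PXR targets, the 13 carboxylesterases, the 13 genes of glucuronidation, the 14 NRF2 targets or the 4 genes of the aryl hydrocarbon receptor list (limma). At an unadjusted p under 0.05 the counts were 4, 3, 4, 3 and 1, against 1605 of all 11371 tested genes. The CAR target Cyp2b10 was under the mean filter, at 0.474 ± 0.495 scaled TPM (SD, n = 14) in controls and 0.506 ± 0.780 (n = 14) in dosed mice, and Cyp1a1 was listed at 0 in all 28. Of 22 glutathione S-transferases, Gstt2 rose (20.3 to 63.4 scaled TPM in controls and 45.5 to 98.5 in dosed mice) and Gstp3 fell. Gstp3 was at 9.04, 14.9 and 21.5 scaled TPM in controls and at 3.94, 8.83 and 13.3 in dosed mice, all below the control median (log2FC -0.81 ± 0.17 SE, adjusted p = 0.00265, limma). Of the 22 bile acid genes only Slc10a2, a sodium-dependent bile acid importer, changed, falling by 0.60 on the log2 scale (adjusted p = 0.0283). Its adjusted p was 0.0631 without replicate 7 of the dosed group and 0.0891 without control replicates 8 and 9. Cyp7a1, the rate-limiting enzyme of bile acid synthesis, had a log2FC of -0.95 ± 0.47 (SE, adjusted p = 0.342, limma).

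The downregulated DEGs with the largest changes after Apoa4 were Serpina12, Mmd2, Ntrk2 and Ccne2. Serpina12 encodes vaspin, a secreted serine protease inhibitor. It was at 4.42, 20.5 and 35.1 scaled TPM in controls and at 2.14, 7.79 and 20.7 in dosed mice, 13 of which lay below the control median (log2FC -1.27 ± 0.22 SE, adjusted p = 0.000188, limma). Mmd2, a membrane protein of the progestin and adipoQ receptor family, had medians of 3.93 and 1.04 scaled TPM, with 10 dosed mice below every control. Ntrk2, the receptor of brain-derived neurotrophic factor, was low in both groups, at 0.96 to 6.12 scaled TPM in controls and 0 to 1.05 in dosed mice, 9 of which were below every control. Ccne2, a cyclin of the entry into S phase, ranged from 1.01 to 7.14 and from 0 to 4.18 scaled TPM.

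Further downregulated DEGs were Arrdc3 (an arrestin-like adapter, medians of 35.3 and 19.7 scaled TPM), Sat1 (a polyamine acetyltransferase, 67.9 and 49.6) and Pdgfa (a growth factor for mesenchymal cells, 11.1 and 8.61). In Arrdc3 and Sat1 all 14 dosed mice lay below the control median, and in Pdgfa 13 did. Sat1 and Pdgfa did not pass without control replicates 8 and 9 (adjusted p = 0.0548 and 0.0768), while the log2FC changed from -0.52 to -0.45 and from -0.56 to -0.46. Among plasma proteins with smaller changes, Mbl2, a lectin of the complement system, fell by 0.36 on the log2 scale, the complement protease C1s1 by 0.28 and transferrin (Trf) by 0.19. Trf did not pass without control replicates 8 and 9 (log2FC -0.18, adjusted p = 0.0523).

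Cfd, which encodes complement factor D or adipsin, had the largest log2FC of the upregulated DEGs (2.07 ± 0.44 SE, adjusted p = 0.00333, limma). It was at 0.764, 4.99 and 11.2 scaled TPM in controls and at 5.10, 23.1 and 52.7 in dosed mice, and 11 of the latter exceeded every control. With a pseudocount of 0.1 its adjusted p was 0.0681 at a log2FC of 2.34. Cfd is best known from adipocytes, and the other adipocyte markers were measured beside it. Lep was listed at 0 in all 28 mice, Plin1 in 13 controls and 14 dosed mice, and Adipoq in 12 and 13. None of the other 6 tested markers passed. Lipe, the hormone-sensitive lipase, averaged 8.11 ± 1.91 scaled TPM in controls and 12.6 ± 4.53 in dosed mice (log2FC 0.54, adjusted p = 0.0916, limma), and Fabp4, a fatty acid binding protein, 24.1 ± 10.9 and 14.8 ± 7.92 (log2FC -0.68, adjusted p = 0.145; SD, n = 14 each). The summed level of the list is no measure of adipocyte RNA, since nearly all of it is Car3 (2738 ± 733 in controls) and Pck1 (488 ± 155), which the liver also expresses.

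Several of the 25 largest increases lay in transcripts with no known role in lipid metabolism or overlapped other genes. Lgals4, a galectin, ranged from 6.03 to 14.3 scaled TPM in controls and from 7.32 to 34.6 in dosed mice, and the long non-coding RNA A630031M04Rik (chromosome 4) from 1.53 to 10.4 and from 6.12 to 23.0. Rnf24, a RING finger protein, had a log2FC of 0.92 and the pseudogene Gm5834 of 0.94, with a control median of 0.382 scaled TPM for the latter.

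Among the upregulated DEGs, 4 unclassified transcripts described here lie inside a gene of lipid metabolism on the same strand, a feature looked for after the values were seen. They were 6430710M23Rik in the phospholipase gene Ddhd2, Gm43609 in Abcd3, Gm44816 in Etfb (an electron carrier of fatty acid oxidation) and Gm44005 in Mgll (monoglyceride lipase). Their log2FC were 0.98, 1.04, 1.18 and 0.59. The genes around them had log2FC of 0.50, 0.42, 0.23 and 0.10, of which the first 2 passed (adjusted p = 0.00396 and 0.00333) and the others did not (adjusted p = 0.204 and 0.710). Snord87, a small nucleolar RNA inside Snhg6, rose with a log2FC of 1.48 (adjusted p = 0.0178), and Snhg6 itself had a log2FC of -0.09. How reads in such overlaps were assigned is not given in the sources used here, so that the inner transcripts are uncertain.

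The promoters of the DEGs were searched for the direct repeat that PPARα binds together with RXR, spelled here as AGGTCA, any base N and AGGTCA again, and read on both strands of the window from 250 bases before to 50 after each start (RefSeq on GRCm38.p6). A window was at hand for 51 of the 74 upregulated and 20 of the 22 downregulated DEGs. No window held the exact repeat, which 0.0481% of the 27025 genes with a window held. With up to 2 differing letters it was found in 3.92% of the upregulated DEGs (2 genes), 5% of the downregulated DEGs (1 gene) and 4.4% of all genes. The shares among the DEGs were thus near the background for windows of this length, and binding farther away was not examined. The 3 windows are shown with the matching 13 letters in capitals. They belong to 2900026A02Rik (chr5:113163264-113163563, minus strand, 1 differing letter), Acot4 (chr12:84038129-84038428, plus strand, 2 differing letters, match on the opposite strand) and Serpina12 (chr12:104044394-104044693, minus strand, 2 differing letters), which rose, rose and fell.
2900026A02Rik: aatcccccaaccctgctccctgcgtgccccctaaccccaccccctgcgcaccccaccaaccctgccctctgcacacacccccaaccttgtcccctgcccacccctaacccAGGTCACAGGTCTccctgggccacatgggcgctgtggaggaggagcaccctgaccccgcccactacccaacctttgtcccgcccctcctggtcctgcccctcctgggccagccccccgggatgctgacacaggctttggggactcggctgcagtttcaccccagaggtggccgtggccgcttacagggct
Acot4: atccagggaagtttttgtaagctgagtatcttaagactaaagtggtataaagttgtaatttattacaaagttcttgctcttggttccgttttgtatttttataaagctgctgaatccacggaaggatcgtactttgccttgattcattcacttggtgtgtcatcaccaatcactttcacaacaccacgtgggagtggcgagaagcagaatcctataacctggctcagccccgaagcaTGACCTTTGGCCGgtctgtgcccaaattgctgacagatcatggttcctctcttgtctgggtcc
Serpina12: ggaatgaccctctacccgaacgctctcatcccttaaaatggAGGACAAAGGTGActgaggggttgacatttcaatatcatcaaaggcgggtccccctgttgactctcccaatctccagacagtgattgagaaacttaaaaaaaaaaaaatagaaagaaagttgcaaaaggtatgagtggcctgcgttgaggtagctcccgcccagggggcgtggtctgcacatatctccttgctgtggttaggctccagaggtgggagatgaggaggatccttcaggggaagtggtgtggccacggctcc

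The levels at the lower doses set the high dose in context. For the 11 genes whose control and high-dose values did not overlap, the high dose also differed from 15 mg/kg bw/d in all but Slc27a2. Against 1.5 mg/kg bw/d, Slc27a2 and also Zfp667 (log2FC 0.36, adjusted p = 0.161, limma) did not pass. Cyp4a14 averaged 358 ± 137 scaled TPM in controls, 346 ± 235 at 1.5, 260 ± 90.5 at 15 and 1207 ± 297 at 150 mg/kg bw/d (SD, n = 14, 13, 13 and 14). Ehhadh averaged 15.8 ± 4.99, 15.7 ± 3.37, 15.8 ± 3.50 and 47.5 ± 11.7, so that the lower groups lay at the control level. Hsd17b11 averaged 135.5 ± 15.9, 146 ± 18.8, 181 ± 42.2 and 229 ± 43.4, with a log2FC of 0.39 at 15 mg/kg bw/d (adjusted p = 0.00308, limma). Slc27a2 averaged 85.4 ± 12.3, 107 ± 12.9, 109 ± 29.2 and 125 ± 11.7, and the differences of 150 from 15 and from 1.5 mg/kg bw/d did not pass (adjusted p = 0.0651 and 0.183, limma).

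Of the 74 upregulated DEGs, 54 were higher at 150 than at 15 mg/kg bw/d with an adjusted p under 0.05, where 9.96% of all tested genes were, and 49 were higher than at 1.5 mg/kg bw/d, where 2.58% were. In 43 both contrasts passed. Of the 22 downregulated DEGs, 14 passed as lower against 15 mg/kg bw/d (10.0% of all tested genes), 11 against 1.5 mg/kg bw/d (2.02%), and 6 passed in both. These contrasts share the high-dose mice with the comparison that chose the DEGs and are given as description. Gpcpd1 was among the exceptions to this pattern, with 17.5 ± 7.28 scaled TPM in controls, 38.1 ± 17.1 at 1.5, 24.0 ± 9.85 at 15 and 31.1 ± 9.08 at 150 mg/kg bw/d. Some other upregulated DEGs also had a higher mean at 1.5 or 15 than at 150 mg/kg bw/d. Retsat at 1.5 mg/kg bw/d (154 ± 37.6) lay between its control (110 ± 26.9) and high-dose (241 ± 58.1) levels.

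Within a group, the induced genes did not all follow each other from mouse to mouse. Cyp4a14 was set against Ehhadh, Acot1, Angptl4, Plin2, Cfd and Apoa4 on the log2 scale, in controls and in dosed mice separately (12 relations, 2-sided permutation tests with 100000 resamples). Only Cyp4a14 and Acot1 in the 14 controls passed, with Pearson's r = 0.908 (permutation p = 4e-05, adjusted p = 0.00048) and Spearman's rho = 0.864 (permutation p = 0.00021, adjusted p = 0.00252). Without the 2 mice farthest from the Cyp4a14 median, r was 0.762. In the 14 dosed mice the same pair had r = 0.459 (permutation p = 0.0955, adjusted p = 0.213) and rho = 0.486 (permutation p = 0.0803, adjusted p = 0.241), and the difference between the groups was not tested. Cyp4a14 and Apoa4 had r = -0.535 in controls and r = -0.602 in dosed mice (permutation p = 0.0478 and 0.0239, both adjusted p = 0.143).

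Markers of other cell types were compared because liver tissue holds more than hepatocytes. In bulk RNA, fewer cells of a type and less RNA per cell cannot be told apart. The hepatocyte markers Alb and Ttr had log2FC of 0.03 and 0.04, and of the 10 hepatocyte markers only Trf passed, and 0 did without control replicates 8 and 9. The sum over these 10 was 27749 to 54950 scaled TPM in controls and 39322 to 51747 in dosed mice. None of the 10 tested markers of stellate cells, 11 of sinusoidal endothelial cells, 12 of Kupffer cells, 14 of lipid-associated macrophages, 4 of T, B and NK cells, 3 of neutrophils, 3 of cholangiocytes, 5 of red cells and 1 of pancreatic acinar cells passed (limma). At an unadjusted p under 0.05, 2 stellate cell, 3 macrophage and 1 lymphoid marker were lower and 0 of the others. Lrat and Reln, which mark stellate cells, had log2FC of -0.26 and -0.05, and the Kupffer cell marker Clec4f of -0.11.

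Several of these lists had a median log2FC below 0, and leaving out control replicates 8 and 9 moved some medians toward 0 and others away from it. The median log2FC was -0.38 for lipid-associated macrophage markers, with 13 of 14 below 0, and -0.11 without the 2 libraries, with 9 of 14 below 0. The sum over this list was 892.1 scaled TPM in control replicate 8, against 192.6 to 529.1 in the other controls and 194.0 to 350.9 in dosed mice. Trem2 and Gpnmb, receptors of such macrophages, were at 0 to 9.17 and 0 to 16.1 scaled TPM in controls, and Gpnmb was listed at 0 in 11 controls and all 14 dosed mice. For Kupffer cell markers the median moved from -0.14 to 0.01 and for antigen presentation genes from -0.12 to 0.03 without the 2 libraries, so that the direction was not kept. For stellate cell markers it moved from -0.16 to -0.04, for lymphoid markers from -0.55 to -0.37 and for neutrophil markers from -0.40 to -0.33. The medians of red cell markers (-0.13 to -0.17), sinusoidal endothelial markers (-0.03 to -0.05) and the 1 acinar marker (-0.27 to -0.34) moved away from 0.

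**Figure D4:**
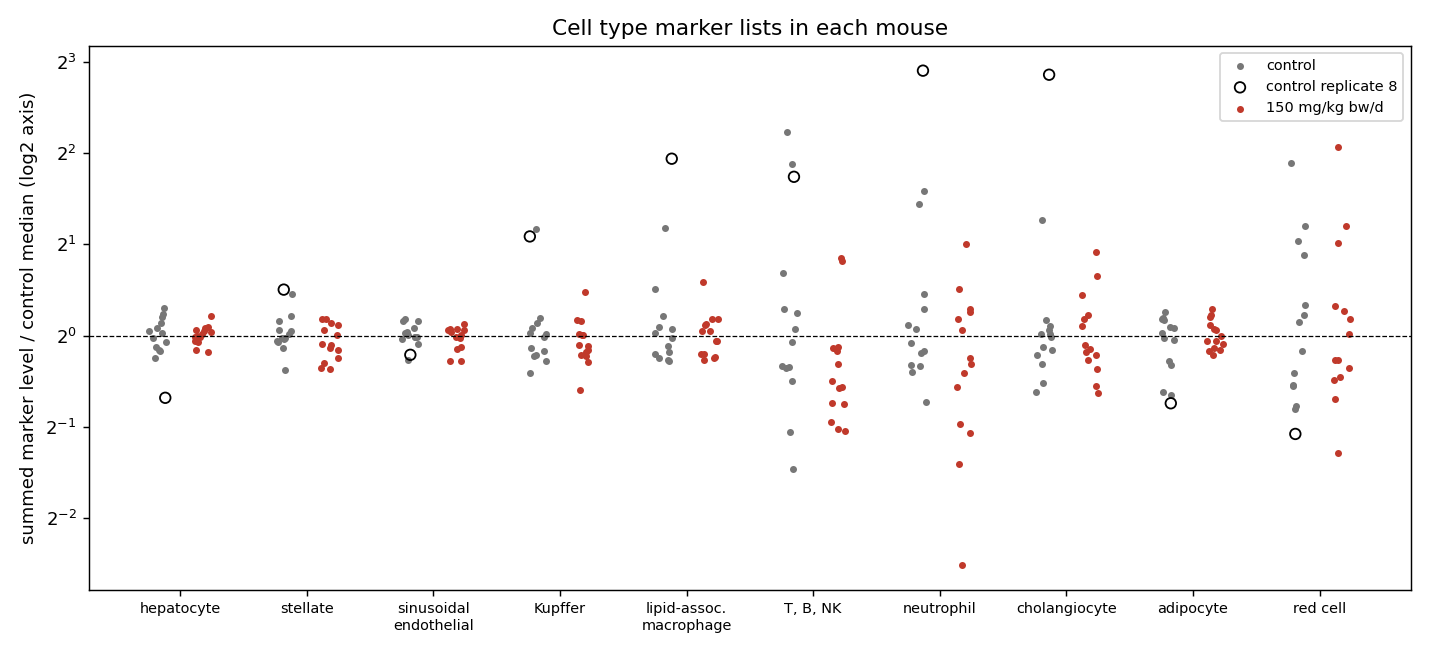
Each point is 1 mouse, and the y axis (log2 axis) is the summed scaled TPM of a cell type's marker list divided by the control median. Control replicate 8 is circled. It is the lowest mouse for hepatocyte markers among the controls and the highest for lipid-associated macrophage, neutrophil and cholangiocyte markers. Control replicate 9 also lies above every dosed mouse for stellate, Kupffer, macrophage, lymphoid, neutrophil and cholangiocyte markers. Its Kupffer sum was 554.67 scaled TPM, against at most 343.65 in dosed mice. As a group, the controls without replicate 8 overlap the dosed mice in every list.

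The extracellular matrix list had 29 of 32 log2FC below 0 and a median of -0.29, which was -0.15 without control replicates 8 and 9, again with 29 below 0. Serpinh1, the collagen chaperone, was at 2.98, 5.28 and 13.0 scaled TPM in controls and at 0.984, 3.07 and 4.18 in dosed mice, all below the control median (log2FC -0.75 ± 0.20 SE, adjusted p = 0.0294, limma). Its adjusted p was 0.0651 without control replicate 8 and 0.116 without both libraries, where the log2FC was -0.60. Emilin1, an elastic fibre glycoprotein, fell by 0.49 on the log2 scale (adjusted p = 0.0223), and neither gene passed without the 2 libraries. The collagens Col1a1, Col1a2 and Col3a1 had log2FC of -0.63, -0.56 and -0.51 with adjusted p from 0.447 to 0.501. Control replicate 8 summed to 1543 scaled TPM over the matrix list, against 554.1 to 1023 in the other controls and 487.2 to 869.5 in dosed mice. Why it stood apart was not tested.

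Acute phase, interferon and stress genes gave no call with all mice. Of 24 acute phase genes, 24 interferon response genes, 15 cytokine and adhesion genes, 19 genes of the unfolded protein response and 8 of the integrated stress response, 0 passed (limma). At an unadjusted p under 0.05 the counts were 6, 3, 2, 2 and 1, against 1605 of all 11371 tested genes. Without control replicates 8 and 9, 1 acute phase gene fell, Itih4 (an inter-alpha-trypsin inhibitor chain, named after its values were seen). The medians of the log2FC with all mice were -0.17, -0.20, -0.11, -0.11 and -0.15. Saa1 and Saa2, the serum amyloid A proteins, had the log2FC -0.81 ± 0.44 and -0.99 ± 0.55 (SE), with adjusted p of 0.413 and 0.423. Saa1 averaged 246 ± 237 scaled TPM in controls and 118 ± 58.8 in dosed mice (SD, n = 14 each), and Saa2 134 ± 150 and 57.7 ± 45.0. The 40 tested genes of amino acid breakdown and the urea cycle also had 0 calls, with log2FC between -0.31 and 0.30, and those of the circadian clock (17 genes) had 0 calls, against 3 and 1 genes at an unadjusted p under 0.05.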

How the data were processed

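Liver RNA of 54 mice was sequenced with QuantSeq 3′ libraries. The authors ran the nf-core/rnaseq pipeline on GRCm38 (STAR, RSEM and Salmon, per the labels) and tested with DESeq2. The deposited table holds a signal value per gene and mouse that the authors named TPM. Each column is a whole number times a factor of its own (0.764 to 1.11), and the whole numbers sum to 948342 to 980641, as rounded TPM would; how the authors scaled them is not given in the sources used here. Read depth and the reads behind a value are unknown, so no count test was used. Mice are separate samples per the labels, and p-values measure the spread between them.

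Genes with a mean of at least 1 over the 28 mice were tested on log2(value + 1) in 1 limma fit (3.58.1, R 4.3.3) over the 4 groups, with a trended prior and Benjamini-Hochberg adjustment. The fit was tested on simulated data, where 175 of 184 changed genes and 4 unchanged genes were called. Named genes were the 25 largest increases and 25 largest decreases among DEGs, list members that passed, the first 3 members of each list and all cell type markers. Others were named after the values were seen. These were genes without overlap between the groups, transcripts inside genes of lipid metabolism, genes around inner transcripts, and Itih4. The comparison, the lists and the tests were chosen with earlier results of these data known. Alternatives were the pseudocount, the filter, the 2 groups alone, quantile normalization, array weights, a robust fit, a replicate block and leaving out mice. Some genes that count in the totals are not reported here by name.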

Additional observations from a re-analysis of the deposited data

How the results depend on the processing

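No gene that passed reversed its direction under the alternatives tried. Of the 74 upregulated and 22 downregulated DEGs, 44 and 4 were counted with a pseudocount of 5. The downregulated count was 11 with a minimum mean of 5, 35 with control and 150 mg/kg bw/d fitted alone and 47 with array quality weights. With no log2FC threshold the counts were 170 and 78. Array quality weights gave 291 genes that rose and 196 that fell, against 170 and 78. The number that fell was 133 with the 2 groups alone and 130 with quantile normalization. Leaving out 1 mouse gave 65 to 83 upregulated and 18 to 31 downregulated DEGs, 140 to 179 genes that rose and 60 to 89 that fell. With a replicate block the counts of DEGs were 72 and 20, and 46 of the 248 genes that passed were lost. With the block and the 2 groups alone, 58 were lost. The replicate numbers gave no sign of pairing over all genes, as the deviations of same-numbered mice had a mean correlation of 0.034 over 14 pairs, with 0 above 0.1. A factor shared by same-numbered mice in few genes would not show in this measure. The cause of these changes was not tested. Low values and 3′ reads limit the measurement of genes near 1 scaled TPM.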
